A study of Mus musculus with 22 samples.

Results

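The comparison asked whether loss of IκBε, the protein encoded by Nfkbie, changed RNA levels of tumors differently in the peritoneal cavity (PC) and in the spleen. It used 16 of the 22 RNA sequencing libraries: 4 NFKBIE-wt and 4 NFKBIE-ko tumors from each of the 2 sites. The cells were a murine leukemia line, TCL1-355-TKO, derived from the Eμ-TCL1 mouse, a model of chronic lymphocytic leukemia in which the TCL1 oncogene is driven in B cells. Both genotypes carried engineered mutations of the line, biallelic CDKN2A and CDKN2B mutations among them. They differed by electroporation with a Cas9 complex that held an Nfkbie crRNA (NFKBIE-ko) or no crRNA (NFKBIE-wt, mock). NFKBIE-ko and NFKBIE-wt cells were first grown apart in C57BL/6 mice, then injected intraperitoneally into separate groups of C57BL/6 recipients (5 mice per group) and recovered 10 days later. An effect of that separate growth cannot be told apart from an effect of the genotype. Tumor cells were not purified, so RNA of host cells was part of each library, and in such bulk samples fewer cells of a type and less RNA per cell cannot be told apart. The remaining 6 libraries were cultures of NFKBIE-wt and NFKBIE-ko cells, 3 each, and entered no test. The labels give blood as the tissue of all samples, and the site is taken from their titles. Nothing in the labels says which PC and spleen samples came from the same mouse, and the p-values measure the spread between these samples.

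IκBε belongs to the inhibitors that bind NF-κB dimers and keep them out of the nucleus, and its own gene is an NF-κB target, which makes it a feedback inhibitor of the canonical pathway. In B cells this pathway carries signals from the B-cell receptor, Toll-like receptors and TNF-family receptors, and the ligands for these differ between anatomical sites. The spleen holds T cells, red pulp macrophages, granulocytes and, in mice, erythroid precursors, whereas the PC holds resident macrophages and innate-like B cells and is lined by mesothelium.

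The crRNA targets exon 2 of Nfkbie, on the plus strand at chr17:45869436-45869455 (GRCm39), within coding sequence of 7 of the 8 annotated transcripts. The protospacer is shown because it defines the genotype contrast of every result here, with the PAM (NGG) that follows it in capitals:
Nfkbie protospacer and PAM: agtgattcacgaagccccgtCGG
Cas9 cuts 3 bases before the PAM, after position 45869452. RNA levels need not report such an edit, because small insertions and deletions can leave the transcript in place.

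Each of the 16 libraries held between 24036763 and 26573453 estimated counts, and levels are given as CPM, counts scaled to the same total in each library, in the order of replicates 1 to 4. The library whose label reads NFKBIE-wt spleen replicate 4, called wt-labelled spleen 4 below, stood apart. Its log2 CPM profile over 10758 genes correlated on average 0.979 with the NFKBIE-ko cultures and 0.962 with the NFKBIE-wt cultures, but 0.930 with the other NFKBIE-wt spleens. Its summed granulocyte markers were at 0.226 CPM, against 76.8 to 474 in replicates 1 to 3, and its erythroid markers at 10.8 CPM, against 383 to 2286. Conversely, the library whose label reads NFKBIE-wt in vitro replicate 3 (wt-labelled culture 3) correlated 0.966 with the NFKBIE-wt spleens and 0.916 with the other NFKBIE-wt cultures, and held 260.1 CPM of granulocyte and 1696 CPM of erythroid markers. The average of 0.962 includes wt-labelled culture 3, and that of 0.966 includes wt-labelled spleen 4. These averages therefore cannot tell which genotype's cultures wt-labelled spleen 4 was nearer to. Both libraries thus went against their labels and were kept in the groups the labels give, and interactions are given with all 16 libraries. Without wt-labelled spleen 4, a single gene's interaction, or a list's median interaction, for which no second value is given moved by less than 1.5 times, and the gene stayed on the same side of the test. Among the NFKBIE-ko spleens, replicate 2 held 66.4 CPM of erythroid markers against 657 to 931. B-cell markers made up the largest sums of all cell type lists in the 16 libraries, between 8562 and 13930.5 CPM.

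Nfkbie RNA itself measured 67.3, 81, 76.8 and 91.8 CPM (NFKBIE-wt) and 64.5, 46.8, 56.2 and 47.6 CPM (NFKBIE-ko) in the PC, and 72.1, 70.7, 74.9 and 121 CPM (NFKBIE-wt) and 119.9, 54.1, 109 and 112 CPM (NFKBIE-ko) in the spleen. In the PC every NFKBIE-ko library was below every NFKBIE-wt library, whereas in the spleen the groups overlapped. The knockout effect on it was log2 -0.56 in the PC and 0.22 in the spleen. The interaction, which is the effect in the PC minus the effect in the spleen, was log2 -0.78 (SE 0.32, adjusted p = 0.153) and did not pass the test. Without wt-labelled spleen 4, where Nfkbie was at 121 CPM, it was log2 -1.05 (adjusted p = 0.0296) and passed. The transcript with the largest share of its counts (67.7%), Nfkbie-201, measured 42.5, 40.3, 49.4 and 101 CPM in the NFKBIE-wt spleens and 81.3, 30.8, 74.4 and 78 CPM in the NFKBIE-ko spleens. The groups overlapped for it. Nfkbie-202, a transcript annotated as retaining an intron (18.2% of the counts), measured 5.92, 10.7, 9.39 and 10.3 CPM in the NFKBIE-wt spleens and 29.6, 16.2, 23.6 and 25.3 CPM in the NFKBIE-ko spleens. It rose with the knockout by log2 1.38 in the spleen and 1.03 in the PC (adjusted p = 0.0172 and 0.0494 by edgeR). Nfkbie-203, which encodes protein, had effects of log2 -0.87 in the spleen and -1.74 in the PC (adjusted p = 0.279 and 0.0208). The interaction passed for none of the 3 transcripts (adjusted p = 0.576, 0.878 and 0.664).

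Of 13137 genes tested, 354 (2.69%) had a knockout effect that differed between the sites by edgeR's quasi-likelihood test, at a Benjamini-Hochberg adjusted p under 0.05 and an interaction beyond log2 1. The effect was higher in the PC for 258 genes (1.96%) and lower in the PC for 96 genes (0.731%). With no fold threshold these were 444 (3.38%) and 360 (2.74%) genes, 6.12% together. At an unadjusted p under 0.05 by edgeR, 1500 of the 13137 genes were higher and 1467 lower. The interaction was positive for 6320 genes and negative for 6817. Counts at that p and counts by sign in the gene lists below are to be read beside these. Without wt-labelled spleen 4, 588 of 13343 genes passed (4.41%), with 416 higher (3.12%) and 172 lower (1.29%). All 354 genes kept their sign and 308 of them passed again, 220 of the higher and 88 of the lower. The count of higher genes also moved by over 1.5 times without NFKBIE-ko PC replicate 2 (163), NFKBIE-ko spleen replicate 4 (165) or NFKBIE-wt PC replicate 2 (161). The count of lower genes did so without NFKBIE-ko PC replicates 2, 3 or 4 (49, 53 and 50), NFKBIE-ko spleen replicates 1, 2 or 3 (60, 146 and 59) or NFKBIE-wt PC replicates 1 or 2 (62 and 63). For comparison, the knockout effect within a site passed the same thresholds for 1402 genes in the PC (10.7%, with 7.71% higher and 2.96% lower) and for 833 genes in the spleen (6.34%, with 3.46% higher and 2.88% lower). Of these, 408 genes moved in the same direction at both sites and 17 in opposite directions. The NFKBIE-ko and NFKBIE-wt libraries did not overlap in the PC for 288 of the 354 genes and in the spleen for 145, beside 40.6% and 15.8% of all genes. The 354 genes were selected by a test on these same libraries, so a larger share among them adds no support to that test. Over all genes, the NFKBIE-ko libraries were above every NFKBIE-wt library for 21.3% in the PC and 8.77% in the spleen, and below for 19.3% and 7%.

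**Figure D1:**
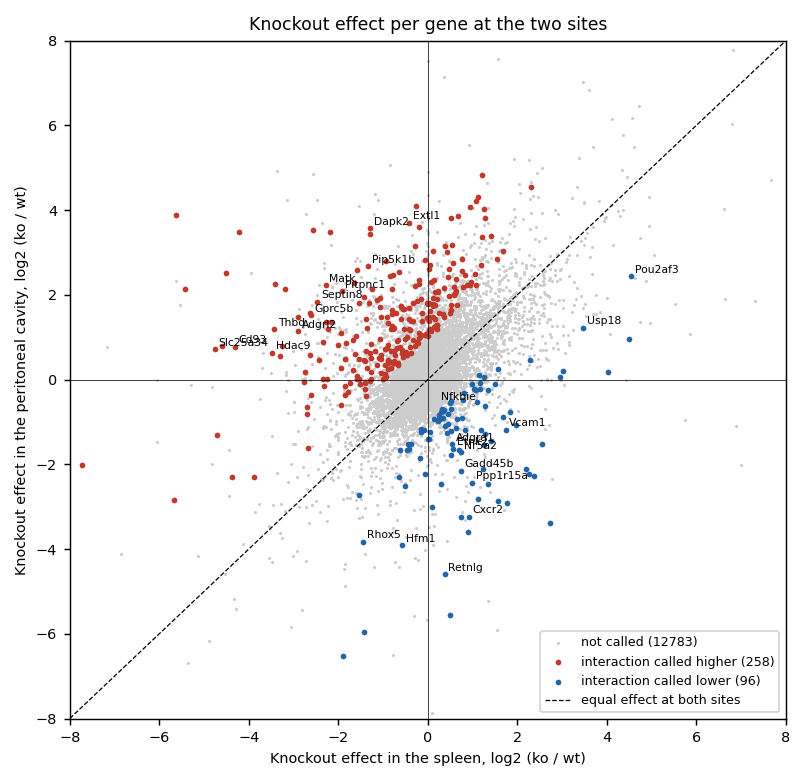
Knockout effect per gene in the spleen (x axis) and in the PC (y axis), both as log2 of NFKBIE-ko over NFKBIE-wt, for 13137 genes, of which 6 lie outside the axes and none of these 6 was called. The 258 genes called higher lie above the dashed line of equal effects and the 96 called lower lie below it.

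The 354 genes fell into a few patterns, set by which site's own effect passed. Among the 258 higher genes, 122 rose with the knockout in the PC only, 64 fell in the spleen only, 14 moved in opposite directions at the sites, 14 moved the same way at both and 44 passed at neither site alone. Among the 96 lower genes, 46 fell in the PC only, 21 rose in the spleen only, 3 moved in opposite directions, 4 the same way and 22 passed at neither. In 253 of the 354 genes a single site passed, and a reversal that passed at both sites was seen in 17. The median interaction over all genes was log2 -0.02, and -0.07 without wt-labelled spleen 4.

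The largest interactions among the higher genes included cell surface and coagulation receptors that fell in the spleen with the knockout and did not fall in the PC. Cd93, a C-type lectin-like receptor of endothelial, myeloid and B-lineage cells, measured 34.4, 39.7, 44.3 and 39.8 CPM in the NFKBIE-wt PC and 68.7, 85.5, 54.1 and 63.4 CPM in the NFKBIE-ko PC. In the spleen it measured 39.8, 40.1, 52.4 and 191 CPM in NFKBIE-wt and 3.89, 6.17, 2.91 and 3.24 CPM in NFKBIE-ko tumors. The NFKBIE-ko libraries were above all NFKBIE-wt libraries in the PC and below all of them in the spleen. The interaction came to log2 5.09 (SE 0.62, adjusted p = 0.00102), and log2 4.17 (adjusted p = 3.42e-06) without wt-labelled spleen 4, which held the highest value. Thbd, the thrombin receptor thrombomodulin, showed the same arrangement, with 8.61, 3.92, 8.25 and 10.4 CPM in the NFKBIE-wt PC and 15.8, 20.6, 18.5 and 16 CPM in the NFKBIE-ko PC. Its spleen values were 4.82, 4.28, 5.86 and 12.1 CPM in NFKBIE-wt and 0.878, 0.432, 0.678 and 0.496 CPM in NFKBIE-ko tumors. The interaction of Thbd was log2 4.62 (SE 0.50, adjusted p = 4.19e-04), and log2 4.13 (adjusted p = 4.72e-05) without that library. Vwf, the von Willebrand factor of endothelium and platelets, differed from these in that it rose in the PC, from 0.404, 0.119, 0 and 0.387 CPM to 5.74, 3.19, 3.03 and 3.77 CPM, and overlapped in the spleen, with 0.279, 0.848, 0.761 and 0.566 CPM in NFKBIE-wt and 0.267, 0.982, 0.479 and 0.305 CPM in NFKBIE-ko tumors. The effects at the sites differed by log2 4.37 (SE 0.90, adjusted p = 0.0117). It was the only one of the 11 tested stromal and endothelial markers to pass, and the list's median interaction was log2 0.10 (0.37 without wt-labelled spleen 4).

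Slc25a34, a mitochondrial carrier, had the largest interaction of the called genes that averaged at least 5 CPM in their highest group. It measured 4.08, 2.85, 2.82 and 4.13 CPM in the NFKBIE-wt PC and 4.23, 6.88, 5.43 and 6.31 CPM in the NFKBIE-ko PC, and in the spleen 4.82, 7.75, 12 and 1.28 CPM in NFKBIE-wt and 0.153, 0.236, 0.319 and 0.229 CPM in NFKBIE-ko tumors. In the spleen every NFKBIE-ko library was below every NFKBIE-wt library, the one labelled replicate 4 included, and the interaction was log2 5.48 (SE 0.71, adjusted p = 0.00134). Hdac9, a class IIa histone deacetylase, fell in the spleen from 17.1, 19.3, 22.3 and 40.2 CPM to 2.75, 2.95, 1.6 and 1.56 CPM, whereas in the PC the groups overlapped, with 3.84, 5.3, 6.61 and 5.73 CPM in NFKBIE-wt and 6.26, 11.6, 9.1 and 6.47 CPM in NFKBIE-ko tumors. Its interaction of log2 4.11 (SE 0.44, adjusted p = 4.19e-04) was log2 3.72 (adjusted p = 5.32e-05) without wt-labelled spleen 4. Matk, a kinase that inhibits Src-family kinases, moved in opposite directions. It rose in the PC from 2.31, 1.9, 1.8 and 2.32 CPM to 7.51, 10.4, 7.82 and 13.3 CPM, and fell in the spleen from 0.957, 3.35, 4.18 and 0.642 CPM to 0.458, 0.275, 0.638 and 0.496 CPM. The interaction of Matk was log2 4.51 (SE 0.68, adjusted p = 0.00222), and log2 4.77 (adjusted p = 1.88e-04) without that library.

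Among other genes with large interactions, those of Dapk2, Adgrl2, Extl1 and Pitpnc1 rested in part on wt-labelled spleen 4. Dapk2, a death-associated kinase of calcium signaling, rose in the PC from 0.283, 0.633, 0.899 and 0.301 CPM to 5.66, 7.95, 5.6 and 6.35 CPM and measured 0.478, 1.74, 1.33 and 10.6 CPM in the NFKBIE-wt and 1.56, 1.14, 2.11 and 0.992 CPM in the NFKBIE-ko spleens. Its spleen effect was log2 -1.28 with that library and 0.33 without it, and its interaction log2 4.86 (SE 1.01, adjusted p = 0.0126) and log2 3.23 (adjusted p = 0.00396). Adgrl2, an adhesion G protein-coupled receptor, measured 9.18, 8.35, 10.7 and 8.52 CPM (NFKBIE-wt) and 19.6, 23.7, 17.7 and 19.8 CPM (NFKBIE-ko) in the PC, and 1.32, 1.78, 2.59 and 23.2 CPM (NFKBIE-wt) and 0.878, 1.26, 0.878 and 0.878 CPM (NFKBIE-ko) in the spleen. Its interaction of log2 4.03 (SE 0.96, adjusted p = 0.0251) dropped to log2 2.05 (adjusted p = 8.40e-04). Extl1, a glycosyltransferase of heparan sulfate synthesis, went from log2 4.13 (SE 0.99, adjusted p = 0.0247) to log2 1.97 (adjusted p = 0.011). Its spleen effect turned from log2 -0.42 to 1.72, while its level in the PC rose from between 0.387 and 0.607 CPM to between 5.3 and 6.79 CPM. Pitpnc1, a phosphatidylinositol transfer protein, had an interaction of log2 4.01 (SE 0.68, adjusted p = 0.00434) with and log2 2.90 (adjusted p = 9.88e-05) without that library. In 3 further genes, in which the NFKBIE-ko PC libraries were also above all NFKBIE-wt PC libraries, the interaction was log2 4.30 (SE 1.05, adjusted p = 0.027) for Septin8, a cytoskeletal GTPase, log2 4.13 (SE 0.99, adjusted p = 0.0255) for Gprc5b, an orphan receptor, and log2 4.00 (SE 0.63, adjusted p = 0.00286) for Pip5k1b, a phosphatidylinositol phosphate kinase. Without wt-labelled spleen 4 these were larger, at log2 4.66 (adjusted p = 2.55e-04), log2 4.50 (adjusted p = 5.38e-04) and log2 4.20 (adjusted p = 6.57e-04). Adgrl2 did not pass without NFKBIE-ko PC replicate 2, NFKBIE-ko spleen replicate 3 or 4, or NFKBIE-wt PC replicate 2 or 4 (adjusted p between 0.0507 and 0.0549). Extl1 did not without NFKBIE-ko spleen replicate 3 or NFKBIE-wt PC replicate 2 (adjusted p up to 0.055). Gprc5b was lost without NFKBIE-ko PC replicate 2 or 3, NFKBIE-ko spleen replicate 3 or NFKBIE-wt PC replicate 2, and Septin8 without these or NFKBIE-ko PC replicate 4 (adjusted p up to 0.0575 and 0.06). A replicate block within genotype, which takes the same-numbered PC and spleen libraries of a genotype as a pair, ended the calls of Dapk2 (adjusted p = 0.0588), Adgrl2 (0.103), Extl1 (0.116), Gprc5b (0.142) and Septin8 (0.154). A block by number alone, over both genotypes, ended those of Adgrl2, Extl1, Gprc5b and Septin8 (adjusted p = 0.0708, 0.0634, 0.0736 and 0.0725). In a fit of all 22 libraries Gprc5b and Septin8 had adjusted p of 0.0989 and 0.104.

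**Figure D2:**
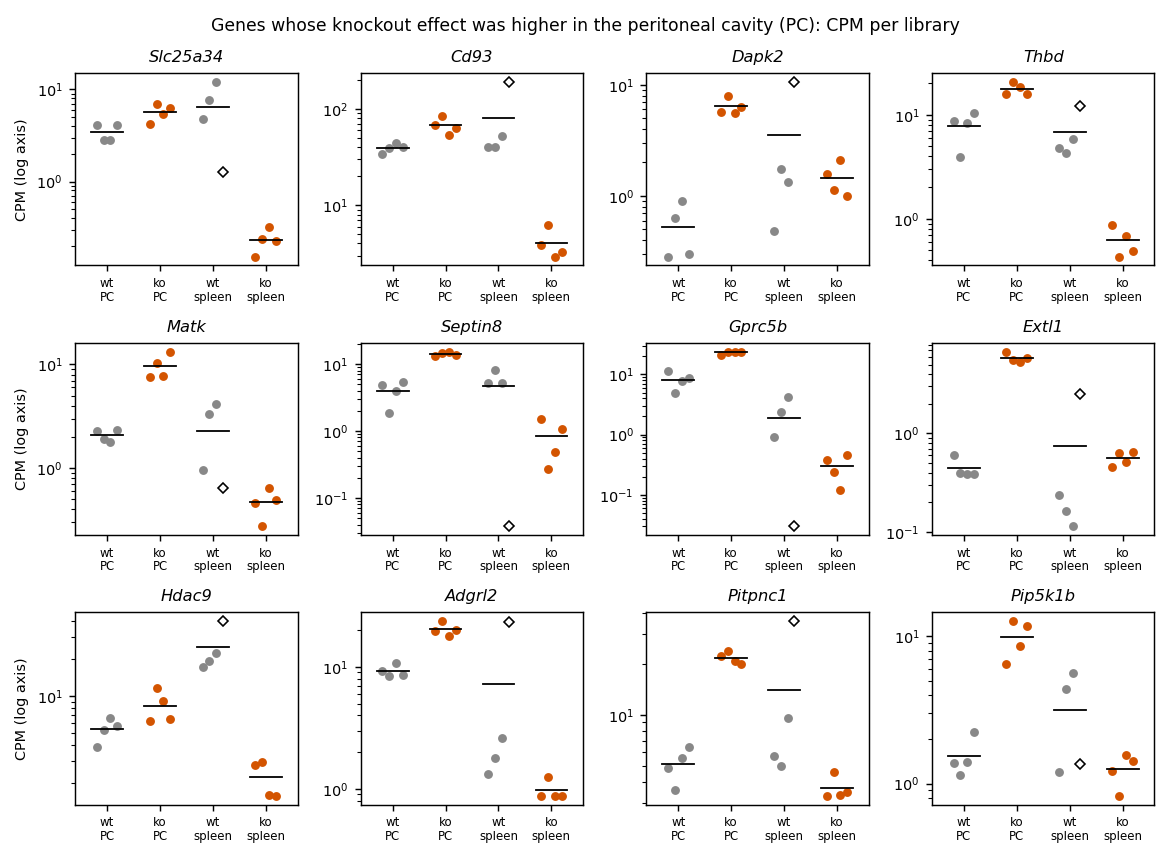
CPM of the 12 called genes with the largest positive interactions, among those of at least 5 CPM in their highest group, in each of the 16 libraries, on log axes that differ between panels, with values under 0.03 CPM drawn at 0.03. Circles are libraries (gray NFKBIE-wt, orange NFKBIE-ko), the open diamond is wt-labelled spleen 4 and the line is the mean of the 4 libraries. In all 12 panels the 4 NFKBIE-ko PC libraries lie above the 4 NFKBIE-ko spleens.

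Among the lower genes, the stress-inducible genes Ppp1r15a and Gadd45b fell in the PC, and their effects in the spleen did not pass. Ppp1r15a (GADD34), which restores translation after eIF2α phosphorylation, measured 285, 389, 77.2 and 118 CPM in the NFKBIE-wt PC and 68.4, 24.6, 34.8 and 32 CPM in the NFKBIE-ko PC. Its level in the spleen was 216, 243, 263 and 22.8 CPM in NFKBIE-wt and 423, 476, 287 and 298 CPM in NFKBIE-ko tumors. The groups did not overlap at either site and lay in opposite order, and the interaction was log2 -3.44 (SE 0.85, adjusted p = 0.0293), and log2 -3.12 (adjusted p = 0.00904) without wt-labelled spleen 4. Gadd45b, a stress sensor and NF-κB target, measured 88.8, 99.9, 19.8 and 27 CPM (NFKBIE-wt) and 10.1, 12.2, 15.4 and 15.4 CPM (NFKBIE-ko) in the PC, and 41.7, 117, 80.2 and 11.7 CPM (NFKBIE-wt) and 127, 70.5, 108 and 115 CPM (NFKBIE-ko) in the spleen. This gave an interaction of log2 -2.90 (SE 0.81, adjusted p = 0.0461). Atf4, the transcription factor of the integrated stress response, had an interaction of log2 -1.06 (SE 0.29, adjusted p = 0.0438), and log2 -0.93 (adjusted p = 0.0181) without that library, which was no longer beyond log2 1. It was 1 of 13 tested genes of that response to pass, and the list's median was log2 -0.13 (-0.37 without wt-labelled spleen 4, when 1 member passed as higher and 0 as lower). In wt-labelled spleen 4 Ppp1r15a and Gadd45b had the lowest values of all spleens. Ppp1r15a did not pass without NFKBIE-ko PC replicate 2, 3 or 4, NFKBIE-ko spleen replicate 1, or NFKBIE-wt PC replicate 1 or 2 (adjusted p up to 0.0666). Gadd45b did not pass without any NFKBIE-ko PC replicate, NFKBIE-ko spleen replicate 1, 3 or 4, NFKBIE-wt PC replicate 1 or 2, or NFKBIE-wt spleen replicate 1 (adjusted p up to 0.0898). Ppp1r15a also lost its call in the fit of all 22 libraries (adjusted p = 0.0673). Gadd45b also lost it with no filter on low counts (0.0681), with the replicate block within genotype (0.0535) and with the block by number alone (0.0785).

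The immediate-early genes, transcription factors and feedback phosphatases that respond within minutes to stimuli and to cell handling, had low levels in the same NFKBIE-ko PC libraries. Of 22 tested, 19 had a negative interaction and none passed by edgeR (0 higher and 6 lower at an unadjusted p under 0.05, 0 and 2 called by DESeq2, 0 and 1 by limma voom). The list's median interaction was log2 -1.08, beside -0.02 over all genes. Without wt-labelled spleen 4, 4 passed and the median was log2 -0.86. The summed level of the list was 5942, 7154, 2049.8 and 2889 CPM in the NFKBIE-wt PC, so replicates 1 and 2 were far above 3 and 4. It was 2467, 1341, 1874 and 1746 CPM in the NFKBIE-ko PC, which overlapped. In the spleen it was 6055, 8796, 8260.2 and 1512 CPM in NFKBIE-wt and 6594, 8302, 5314 and 4981 CPM in NFKBIE-ko tumors. Fosb, a subunit of AP-1, measured 498, 745, 21.3 and 69.5 CPM in the NFKBIE-wt PC and 12.1, 2.16, 6.33 and 5.52 CPM in the NFKBIE-ko PC. It had an interaction of log2 -5.65 (SE 1.72, adjusted p = 0.062), and log2 -5.29 (adjusted p = 0.0268) without that library. Fos, another subunit of AP-1, had log2 -4.05 (SE 1.50, adjusted p = 0.122) and log2 -3.68 (adjusted p = 0.035). All 11 tested heat shock genes also had negative interactions, with a median of log2 -0.67 (-0.71 without that library) and none passing by edgeR in either fit (0 higher and 4 lower at an unadjusted p under 0.05, 0 and 0 called by DESeq2, 0 and 0 by limma voom). The part of tissue handling in these values was not tested.

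The upstream sequence of Ppp1r15a is shown as that of a gene whose groups lay in opposite order at the sites. Cd93, Thbd and Vcam1 also had groups in opposite order, and their upstream sequences are not shown. That of Nfkbid is shown because it was the NF-κB inhibitor to pass. Both genes were chosen after their values were known, and a sequence without a match would not have been printed. The windows are the 250 bases before a RefSeq transcript start (GRCm38.p6), with matches to an NF-κB site, GGGNNTTCC on either strand, in capitals:
Ppp1r15a chr7:45526269-45526518, minus strand: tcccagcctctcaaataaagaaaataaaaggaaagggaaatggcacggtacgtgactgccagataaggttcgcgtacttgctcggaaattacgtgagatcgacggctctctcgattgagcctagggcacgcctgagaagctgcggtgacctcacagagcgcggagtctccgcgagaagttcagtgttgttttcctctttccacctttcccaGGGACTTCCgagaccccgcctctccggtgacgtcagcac
Nfkbid chr7:30422156-30422405, plus strand: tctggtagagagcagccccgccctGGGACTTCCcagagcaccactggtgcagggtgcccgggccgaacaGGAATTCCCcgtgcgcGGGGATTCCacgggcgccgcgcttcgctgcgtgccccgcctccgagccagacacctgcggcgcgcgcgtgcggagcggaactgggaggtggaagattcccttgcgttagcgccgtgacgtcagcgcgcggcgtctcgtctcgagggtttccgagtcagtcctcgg
The Ppp1r15a window held 1 match, which begins 39 bases before the start, and the Nfkbid window 3, the nearest of which begins 165 bases before it. Such a match is found in 4.98% of all 32851 windows of the table. Among the 9648 tested genes that have a window the share is 7.58%. Motif shares were not compared between called and other genes, because 201 of the 258 higher and 72 of the 96 lower genes had a window, too few for such a check. These matches describe letters and not binding.

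Nfkbid, a nuclear IκB that modulates NF-κB transcription, measured 33.5, 48.2, 52.4 and 53.2 CPM (NFKBIE-wt) and 56, 27.7, 35.9 and 31.9 CPM (NFKBIE-ko) in the PC, and 72.4, 58.9, 57.1 and 69.9 CPM (NFKBIE-wt) and 115, 81.5, 107 and 147 CPM (NFKBIE-ko) in the spleen. The groups overlapped in the PC, and in the spleen every NFKBIE-ko library was above every NFKBIE-wt library. Its interaction was log2 -1.11 (SE 0.31, adjusted p = 0.0443), and log2 -1.20 (adjusted p = 0.0294) without wt-labelled spleen 4. It was the only one of the 20 tested genes of NF-κB subunits, inhibitors and kinases to pass with all libraries. Without that library a second member, Nfkbie itself, passed. The subunits Nfkb1, Nfkb2, Rel, Rela and Relb had interactions between log2 -0.30 and -0.02, and none passed. Of 35 tested NF-κB target genes, 1, Gadd45b, passed by edgeR, while DESeq2 called 0 higher and 5 lower, and limma voom 0 and 5. The list's median was log2 -0.30. By the effects within a site, 8 of them rose in the PC and 14 rose in the spleen, beside 7.71% and 3.46% of all genes. Without that library 4 targets passed as lower and 1 as higher.

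Vcam1 and Adgrd1, an adhesion ligand and an adhesion receptor, also had a lower effect in the PC. Vcam1, the ligand of the α4β1 integrin on stromal cells and macrophages, measured less in the PC of NFKBIE-ko tumors, with 19.5, 21.9, 21.7 and 26.4 CPM in NFKBIE-wt and 16.9, 7.2, 9.15 and 6.15 CPM in NFKBIE-ko tumors, although that effect did not itself pass. In the spleen it rose from 44.5, 34.5, 44.5 and 12.5 CPM to 191, 47.5, 109.9 and 106 CPM. The NFKBIE-ko libraries were below all NFKBIE-wt libraries in the PC and above all of them in the spleen, and the interaction was log2 -2.92 (SE 0.60, adjusted p = 0.0117). Adgrd1, an adhesion G protein-coupled receptor, fell in the PC from 416, 394, 499 and 382 CPM to 184, 117, 145 and 142 CPM. Its spleen values overlapped, with 55.2, 50.5, 52.3 and 53.6 CPM in NFKBIE-wt and 61.2, 125, 49.8 and 72 CPM in NFKBIE-ko tumors. The interaction came to log2 -2.07 (SE 0.31, adjusted p = 0.00219). Vcam1 and Adgrd1 passed in every fit that left out 1 library. They had log2 -2.69 (adjusted p = 0.00553) and log2 -2.12 (adjusted p = 0.00169) without wt-labelled spleen 4.

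In 4 of the lower genes the knockout moved RNA the same way at both sites but by unequal amounts. Rhox5, an X-linked homeobox gene of the reproductive tract that is often active in tumor lines, fell from 83, 73.7, 76.8 and 99 CPM to 5.81, 4.17, 6.67 and 6.75 CPM in the PC and from 41.2, 34.4, 25.2 and 36.2 CPM to 11.6, 13.9, 11.8 and 13.2 CPM in the spleen. The effects were log2 -3.83 and -1.44, and the interaction was log2 -2.39 (SE 0.23, adjusted p = 1.75e-04). In the fit of all 22 libraries Rhox5 did not pass (adjusted p = 0.0588). Usp18, the deISGylase that limits interferon signaling, rose from 7.93, 4.63, 4.11 and 6.8 CPM to 13.6, 16.4, 13.5 and 11 CPM in the PC and from 1.55, 1.37, 1.37 and 1.36 CPM to 17.7, 10.0, 20.6 and 14.4 CPM in the spleen. Its effects were log2 1.22 and 3.47, with an interaction of log2 -2.25 (SE 0.34, adjusted p = 0.00219). Pou2af3, a coactivator of POU-domain transcription factors, rose from 7.16, 6.57, 7.43 and 8.91 CPM to 41.2, 41.7, 38.6 and 41.7 CPM in the PC and from 1.43, 1.13, 2.02 and 7.47 CPM to 64.4, 82.6, 75.4 and 61.2 CPM in the spleen. The interaction of Pou2af3 was log2 -2.11 (SE 0.55, adjusted p = 0.035), and log2 -3.14 (adjusted p = 3.42e-06) without wt-labelled spleen 4. It did not pass without any NFKBIE-ko PC replicate, NFKBIE-ko spleen replicate 1 or 3, NFKBIE-wt PC replicate 1, 2 or 4, or NFKBIE-wt spleen replicate 1 (adjusted p up to 0.0696), nor in the fit of all 22 libraries (0.0657). The fourth was Smoc1, which was named after its values were seen, with log2 -1.19 (SE 0.15, adjusted p = 0.00134). Usp18 was the only one of 21 tested interferon response genes to pass by edgeR with all libraries, and 2 passed as lower without wt-labelled spleen 4. With all libraries DESeq2 called 0 higher and 3 lower, and limma voom 0 and 2, and the list's median was log2 -0.34.

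Nr5a2, a nuclear receptor of bile acid and steroid metabolism, fell in the PC from 33.9, 32, 41.4 and 34.4 CPM to 16.6, 7.0, 10.2 and 9.44 CPM. In the spleen it measured 20.1, 17.3, 28.3 and 20.9 CPM in NFKBIE-wt and 44.9, 27.6, 31.5 and 40.0 CPM in NFKBIE-ko tumors. Its interaction of log2 -2.44 (SE 0.32, adjusted p = 0.00137) passed in every fit that left out 1 library. Hfm1, a helicase of meiotic recombination, was at 5.38, 6.57, 6.49 and 7.53 CPM in the NFKBIE-wt PC and 0.528, 0.315, 0.427 and 0.436 CPM in the NFKBIE-ko PC. The spleens lay between 0.34 and 2.17 CPM and overlapped, and the interaction was log2 -3.34 (SE 0.63, adjusted p = 0.00763). With the replicate block within genotype it did not pass (adjusted p = 0.0508). Etnk2, an ethanolamine kinase, had an interaction of log2 -2.21 (SE 0.62, adjusted p = 0.046), with an effect in the PC of log2 -1.63. Its call was lost in 13 of the 16 fits that left out 1 library (adjusted p up to 0.0938), with the replicate block within genotype (0.0926) and with the block by number alone (0.0757). It remained when NFKBIE-ko spleen replicate 2 or NFKBIE-wt spleen replicate 1 or 4 was left out, the last giving log2 -1.96 (adjusted p = 0.0254).

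**Figure D3:**
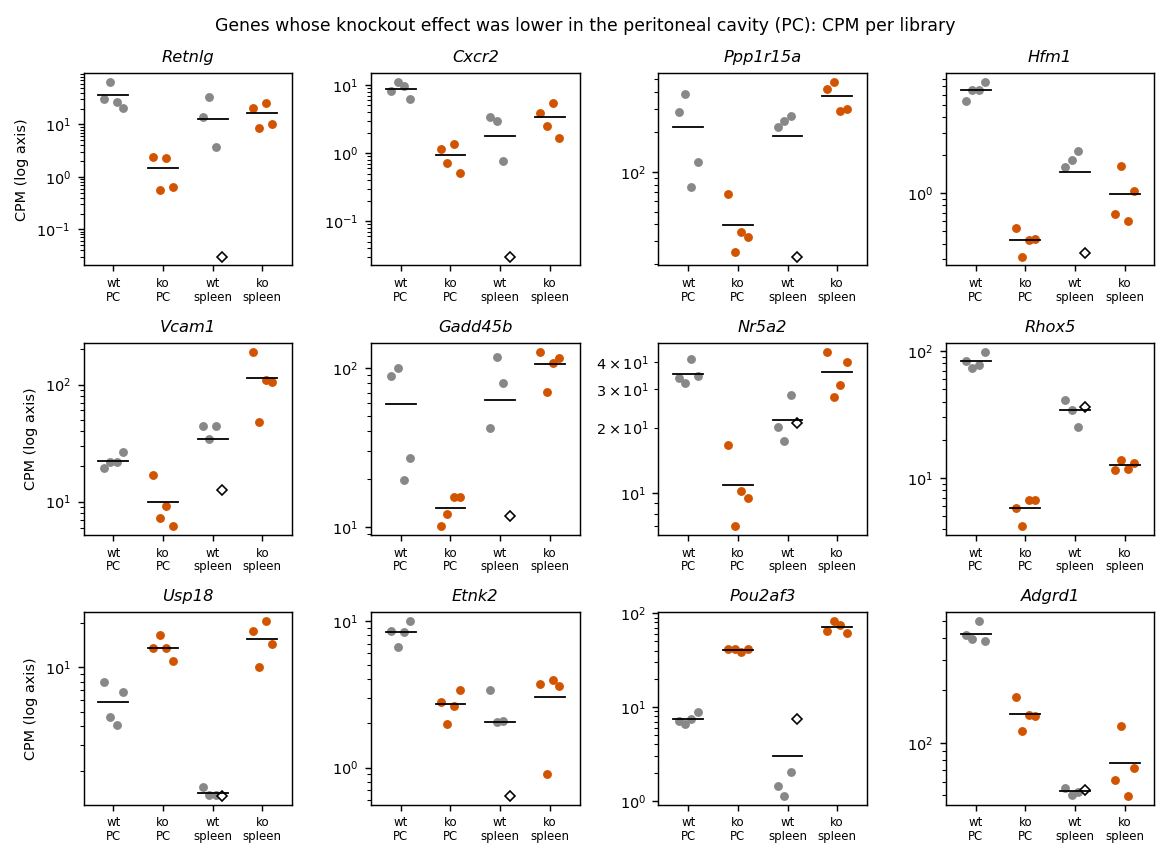
CPM of the 12 called genes with the largest negative interactions at that level in each of the 16 libraries, drawn as for the higher genes, on log axes that differ between panels and with values under 0.03 CPM drawn at 0.03. The 4 NFKBIE-ko PC libraries lie below the NFKBIE-wt PC libraries in 10 panels, and above them for Usp18 and Pou2af3.

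Of 15 tested granulocyte markers, 9 fell with the knockout in the PC and 0 passed in the spleen. Of all genes, 2.96% fell in the PC and 6.34% passed in the spleen in either direction. Retnlg, a resistin-like protein of neutrophils, measured 31.1, 64.7, 26.6 and 20.8 CPM in the NFKBIE-wt PC and 2.42, 0.551, 2.31 and 0.635 CPM in the NFKBIE-ko PC. Its level in the spleen was 14, 32.8, 3.69 and 0 CPM in NFKBIE-wt and 20.6, 8.68, 26.1 and 10.3 CPM in NFKBIE-ko tumors, and the groups overlapped. The effects at the sites differed by log2 -4.98 (SE 1.34, adjusted p = 0.0403), and log2 -4.62 (adjusted p = 0.00853) without wt-labelled spleen 4. Cxcr2, the chemokine receptor of neutrophils, measured 8.17, 11.1, 9.82 and 6.29 CPM (NFKBIE-wt) and 1.13, 0.708, 1.37 and 0.516 CPM (NFKBIE-ko) in the PC, and 3.43, 2.95, 0.761 and 0 CPM (NFKBIE-wt) and 3.93, 2.48, 5.39 and 1.68 CPM (NFKBIE-ko) in the spleen. The interaction of Cxcr2 was log2 -4.16 (SE 1.05, adjusted p = 0.0307), and log2 -3.80 (adjusted p = 0.00307) without that library. Retnlg and Cxcr2 were the 2 of 15 tested granulocyte markers to pass by edgeR, while DESeq2 called 0 higher and 4 lower, and limma voom 0 and 5. The list's median interaction was log2 -2.87, with 13 negative members, a median PC effect of -3.12 and a median spleen effect of 0.16. Without that library 9 passed and the median was log2 -2.51, and S100a9, a calprotectin subunit, had an interaction of log2 -3.65 (adjusted p = 0.0225). The summed list was 347, 611, 236 and 262 CPM in the NFKBIE-wt PC and 82, 78.7, 72.3 and 63.3 CPM in the NFKBIE-ko PC, which did not overlap. In the spleen it was 257, 474, 76.8 and 0.226 CPM in NFKBIE-wt and 281, 144, 322 and 124 CPM in NFKBIE-ko tumors. Cxcr2 did not pass without any NFKBIE-ko PC replicate, NFKBIE-ko spleen replicate 1 or 3, or NFKBIE-wt PC replicate 1 or 2 (adjusted p up to 0.0695), nor with the replicate block within genotype (0.0528) or in the fit of all 22 libraries (0.128). Retnlg lost its call in 13 of the 16 fits that left out 1 library (adjusted p up to 0.0859), and kept it without NFKBIE-ko spleen replicate 2 and NFKBIE-wt spleen replicates 2 or 4. Retnlg did not pass with no filter on low counts either (0.0622), nor in the fit of all 22 libraries (0.0948).

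Erythroid markers lay the other way. All 17 tested markers had a positive interaction, with a median of log2 3.16 (1.20 in the PC and -1.51 in the spleen), and none passed by edgeR. By edgeR's unadjusted p under 0.05 there were 5 higher and 0 lower members, DESeq2 called 5 and 0, and limma voom 0 and 0. A whole group was at 0 for 4 members, and with such groups set to 3 counts over the 4 libraries the median was log2 2.14. Without wt-labelled spleen 4, 5 passed and the median was log2 3.53. Car1, the erythroid carbonic anhydrase, measured 35.4, 91.4, 35.6 and 0 CPM in the NFKBIE-wt and 3.78, 1.41, 1.68 and 3.66 CPM in the NFKBIE-ko spleens. In the PC it stayed at 0.0809, 0.0396, 0.0391 and 0.0431 CPM in NFKBIE-wt and 1.06, 0.157, 0 and 0 CPM in NFKBIE-ko tumors, so its PC effect rests on a few counts. This gave an interaction of log2 6.46 (SE 2.34, adjusted p = 0.113), and log2 6.83 (adjusted p = 0.00776) without that library. Add2, a membrane skeleton protein, was at 0 in all NFKBIE-wt PC libraries and at 0.566, 0, 0 and 0 CPM in the NFKBIE-ko PC. Its spleen values were 7.97, 18.2, 8.52 and 0.0377 CPM in NFKBIE-wt and 0.725, 0.393, 0.479 and 1.72 CPM in NFKBIE-ko tumors. Rhag, an erythrocyte membrane channel, was likewise at 0 in all NFKBIE-wt PC libraries and at 0.415, 0.0787, 0.0427 and 0 CPM in the NFKBIE-ko PC, against 9.61, 20.3, 10.2 and 0 and 2.21, 0.432, 2.19 and 1.91 CPM in the NFKBIE-wt and NFKBIE-ko spleens. No fold is given for this pair, and their adjusted p by edgeR were 0.126 and 0.166 with all libraries and 0.0288 and 0.0228 without wt-labelled spleen 4. The hemoglobin genes had interactions between log2 0.16 and 1.08, which did not pass. NFKBIE-ko spleen replicate 2, with 66.4 CPM of summed erythroid markers, was far below the other NFKBIE-ko spleens at 657 to 931 CPM.

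**Figure D4:**
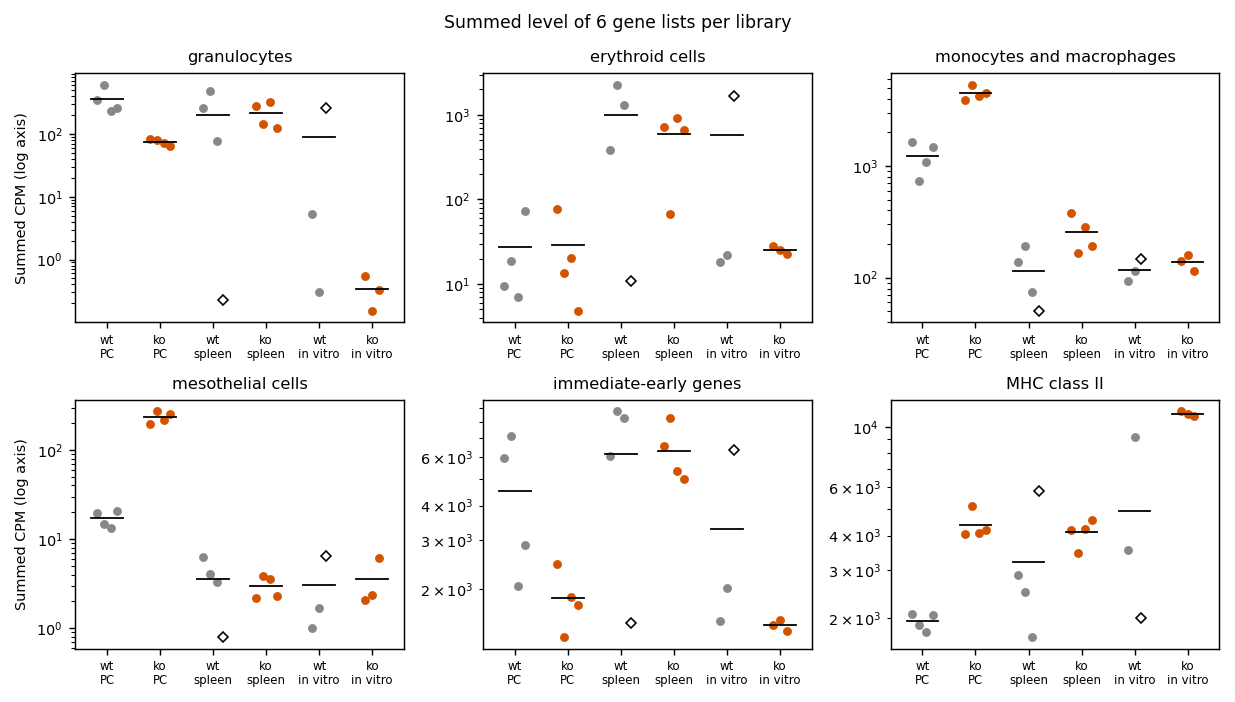
Summed CPM of 6 gene lists in all 22 libraries, on log axes that differ between panels. The cultures were scaled by TMM over all 22 libraries, and the PC and spleen libraries by TMM among themselves. Circles are libraries (gray NFKBIE-wt, orange NFKBIE-ko), lines are group means and open diamonds are wt-labelled spleen 4 and wt-labelled culture 3. The first diamond lies with the cultures and the second with the spleens for granulocyte, erythroid and immediate-early genes.

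Of 19 general monocyte and macrophage markers, 12 rose with the knockout in the PC and 6 in the spleen, beside 7.71% and 3.46% of all genes. The summed peritoneal macrophage list was 291, 181, 289.5 and 342 CPM in the NFKBIE-wt PC and 947, 1044, 694 and 1013 CPM in the NFKBIE-ko PC, against 31.1 to 44.7 and 36.7 to 42.3 CPM in the NFKBIE-wt and NFKBIE-ko spleens. The list's median interaction was log2 1.20, with 13 of 15 members positive, 8 that rose in the PC and 1, Ltbp1, that passed for the interaction (2 without wt-labelled spleen 4). Ltbp1, a TGF-β binding protein, measured 2.95, 1.46, 3.79 and 2.88 CPM (NFKBIE-wt) and 4.38, 6.45, 3.5 and 6.03 CPM (NFKBIE-ko) in the PC, and 3.51, 3.23, 5.9 and 6.26 CPM (NFKBIE-wt) and 1.41, 1.81, 0.519 and 1.6 CPM (NFKBIE-ko) in the spleen. Its interaction of log2 2.69 (SE 0.53, adjusted p = 0.00979) came with a fall in the spleen, by 1.82 on the log2 scale, while its PC effect of log2 0.88 did not pass. The summed general list lay between 732 and 1630.0 CPM in the NFKBIE-wt PC and between 3854 and 5338 CPM in the NFKBIE-ko PC. It lay between 50.4 and 190.2 CPM in the NFKBIE-wt spleens and between 166 and 375 CPM in the NFKBIE-ko spleens. Its median effects were log2 1.35 in the PC and 1.24 in the spleen, and none of its 19 members passed for the interaction by edgeR with all libraries, against 2 without wt-labelled spleen 4. With all libraries and by edgeR's unadjusted p under 0.05 there were 2 higher and 2 lower members, DESeq2 called 1 and 0, and limma voom 0 and 0. The red pulp macrophage list had a median of log2 -0.90 (-0.60 without wt-labelled spleen 4), and Vcam1 was the 1 of 16 to pass.

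Krt8 and Krt18, the paired keratins of simple epithelia, rose with the knockout in the PC, and Krt18 rose in the spleen too. Krt8 measured 10.2, 6.65, 5.47 and 9.43 CPM in the NFKBIE-wt PC and 116, 157, 118 and 143 CPM in the NFKBIE-ko PC, and 1.55, 1.01, 0.342 and 0.302 CPM and 1.22, 2.04, 1.84 and 1.07 CPM in the NFKBIE-wt and NFKBIE-ko spleens. Its interaction was log2 3.13 (SE 0.52, adjusted p = 0.00399), and log2 3.35 (adjusted p = 0.00103) without wt-labelled spleen 4. Krt18 had log2 2.24 (SE 0.56, adjusted p = 0.0304), and log2 1.77 (adjusted p = 0.116), which did not pass. Krt18 measured 4.21, 4.2, 2.89 and 5.9 CPM (NFKBIE-wt) and 77.9, 116, 100.3 and 108 CPM (NFKBIE-ko) in the PC, and 0.0399, 0.283, 0.114 and 0.34 CPM (NFKBIE-wt) and 0.878, 0.786, 1.44 and 0.84 CPM (NFKBIE-ko) in the spleen. Both were on the mesothelial list, whose summed level was 13.5 to 20.7 CPM in the NFKBIE-wt PC and 195 to 275 CPM in the NFKBIE-ko PC. The other mesothelial markers did not rise with them. Lrrn4, a mesothelial membrane protein, was at 3.76, 2.53, 3.72 and 2.37 CPM in the NFKBIE-wt PC and 0.679, 1.57, 0.855 and 1.19 CPM in the NFKBIE-ko PC. Igfbp6, a growth factor binding protein, was at 1.78, 1.23, 1.37 and 2.97 CPM and 0.566, 1.06, 0.385 and 1.11 CPM. Of the 13 listed markers 9 were in the table and only these 4 passed the filter on low counts.

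The integrin genes Itgb7 and Itgb2 rose in the PC, and their effects in the spleen did not pass. Itgb7, the β subunit of the gut-homing integrin α4β7, measured 76.4, 64.9, 55.6 and 74.3 CPM in the NFKBIE-wt PC and 211, 253, 235 and 227 CPM in the NFKBIE-ko PC. Its spleen values were 42.2, 72.6, 39.3 and 63.9 CPM in NFKBIE-wt and 45.6, 98.9, 55.9 and 42.2 CPM in NFKBIE-ko tumors and overlapped. The interaction of Itgb7 was log2 1.62 (SE 0.35, adjusted p = 0.0148). Itgb2, the β subunit of the leukocyte integrins, rose from 147, 93, 129.8 and 148 CPM to 332, 437, 361 and 383 CPM in the PC and measured 58.6, 56.6, 49 and 52.6 CPM and 73.3, 69.7, 66.5 and 64.7 CPM in the NFKBIE-wt and NFKBIE-ko spleens. It had an interaction of log2 1.21 (SE 0.18, adjusted p = 0.00219), and is also expressed by macrophages, whose summed markers were higher in the same libraries (their part was not tested). These were the 2 of 20 tested homing and adhesion genes to pass, with a list median of log2 0.34, and 3 passed without wt-labelled spleen 4. Among chemokine receptors, Ccr9, which directs lymphocytes to the small intestine, rose in the PC from 58.6, 80.7, 78.2 and 69.2 CPM to 263, 232, 209 and 210.1 CPM and overlapped in the spleen, with 34.6, 55.8, 28.9 and 96 CPM and 19.6, 80.6, 26 and 21.2 CPM in NFKBIE-wt and NFKBIE-ko tumors. The interaction came to log2 2.22 (SE 0.59, adjusted p = 0.0391), and log2 1.73 (adjusted p = 0.0515) without wt-labelled spleen 4, which did not pass. Cxcr3, the receptor for interferon-induced chemokines, rose in the PC from 0.728, 0.554, 0.626 and 1.25 CPM to 7.62, 9.52, 6.2 and 9.44 CPM, against 0.996, 0.323, 0.495 and 0.226 CPM and 0.992, 1.77, 1.36 and 0.611 CPM in the NFKBIE-wt and NFKBIE-ko spleens. The interaction of Cxcr3 was log2 2.17 (SE 0.60, adjusted p = 0.0445). Cx3cr1, the fractalkine receptor, was lower at log2 -3.85 (SE 0.81, adjusted p = 0.0134), from no more than 3.03 CPM in any library. Of 28 tested chemokines and receptors, 2 passed as higher and 2 as lower.

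A pair of hypoxia-responsive genes, Egln3 and Ndrg1, had a knockout effect that was higher in the PC. Egln3, an oxygen-sensing prolyl hydroxylase induced by HIF, measured 16.7, 19.1, 31 and 28 CPM in the NFKBIE-wt PC and 58.1, 72.5, 61.7 and 50.0 CPM in the NFKBIE-ko PC. In the spleen it measured 5.22, 5.37, 5.44 and 21.3 CPM in NFKBIE-wt and 3.01, 1.02, 2.11 and 1.56 CPM in NFKBIE-ko tumors. Egln3 moved in opposite directions at the sites, and its interaction was log2 3.63 (SE 0.61, adjusted p = 0.00434), and log2 2.77 (adjusted p = 5.81e-04) without wt-labelled spleen 4. Ndrg1, a stress gene induced by hypoxia, measured 118, 98.1, 144 and 113 CPM (NFKBIE-wt) and 185, 211, 185 and 209.8 CPM (NFKBIE-ko) in the PC, and 35.9, 50.7, 72.8 and 44.7 CPM (NFKBIE-wt) and 26.4, 30.1, 22.7 and 29.4 CPM (NFKBIE-ko) in the spleen. The effects at the sites differed by log2 1.65 (SE 0.25, adjusted p = 0.00219). Both passed, 19 of the 21 tested glycolysis and hypoxia genes had a positive interaction, and the list's median was log2 0.37 (0.16 without that library). Vegfa, the endothelial growth factor, had log2 1.62 (SE 0.49, adjusted p = 0.0599) and did not pass. The glycolytic enzymes Ldha, Gapdh and Pkm had interactions of log2 -0.13, 0.09 and 0.24 and did not pass. The window before the Egln3 start is shown for the letters ACGTG on either strand, the core of a hypoxia response element, in capitals (RefSeq, GRCm38.p6):
Egln3 chr12:54203875-54204124, minus strand: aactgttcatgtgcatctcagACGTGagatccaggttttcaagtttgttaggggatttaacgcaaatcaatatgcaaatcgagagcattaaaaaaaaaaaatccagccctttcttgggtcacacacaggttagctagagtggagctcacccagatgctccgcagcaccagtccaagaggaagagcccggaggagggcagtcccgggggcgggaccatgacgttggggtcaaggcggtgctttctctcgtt
It held 1 match, 229 bases before the start, and 16.6% of all windows and 25.1% of those of tested genes hold these letters. Egln3 too was chosen after its values were known, and a window without a match would not have been printed.

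All 10 tested MHC class II genes had a positive interaction, and none passed by edgeR. At an unadjusted p under 0.05 were 6 higher and 0 lower members, DESeq2 called 1 and 0, and limma voom 1 and 0. H2-Oa, a subunit of the peptide-loading modulator H2-O, measured 6.59, 6.45, 5.04 and 4.91 CPM (NFKBIE-wt) and 23.8, 23.4, 22.7 and 24.4 CPM (NFKBIE-ko) in the PC, and 4.78, 4.76, 1.83 and 9.96 CPM (NFKBIE-wt) and 8.01, 8.17, 9.26 and 7.14 CPM (NFKBIE-ko) in the spleen. The median of the 10 tested genes was log2 0.69, and 0.38 without wt-labelled spleen 4, in which their sum was 5799.9 CPM against 1703 to 2882 in replicates 1 to 3. The summed list was 2070.0, 1884, 1774 and 2051 CPM in the NFKBIE-wt PC and 4059, 5142, 4078 and 4204 CPM in the NFKBIE-ko PC. Cholesterol and fatty acid synthesis genes turned with that library: 20 of 21 were positive with a median of log2 0.60 with all libraries, and the median was log2 -0.29 without it, with none passing by edgeR in either fit (1 higher and 0 lower at an unadjusted p under 0.05, 0 and 0 called by DESeq2, 0 and 0 by limma voom). The 10 MHC class I genes had a median of log2 -0.25, and none passed by edgeR (0 higher and 3 lower at an unadjusted p under 0.05, 0 and 0 called by DESeq2, 0 and 0 by limma voom). Of 16 tested B-cell markers, Cd22, an inhibitory coreceptor, passed, with log2 2.36 (SE 0.48, adjusted p = 0.0109) and log2 1.78 (adjusted p = 0.00479) without that library. It measured 10.7, 15.2, 8.64 and 8.52 CPM in the NFKBIE-wt PC and 33.7, 38.6, 27 and 27.7 CPM in the NFKBIE-ko PC, and 34.6, 25.9, 24.5 and 78.6 CPM and 20.4, 35.2, 19 and 19.5 CPM in the NFKBIE-wt and NFKBIE-ko spleens. Jchain, the joining chain of polymeric immunoglobulin, was the 1 of 8 plasma cell markers to pass, with log2 2.25 (SE 0.49, adjusted p = 0.0171) and an effect in the spleen of log2 -2.60. None of 22 proliferation genes passed by edgeR (0 higher and 5 lower at an unadjusted p under 0.05, 0 and 0 called by DESeq2, 0 and 0 by limma voom), at a median of log2 -0.05 (-0.19 without wt-labelled spleen 4).

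**Figure D5:**
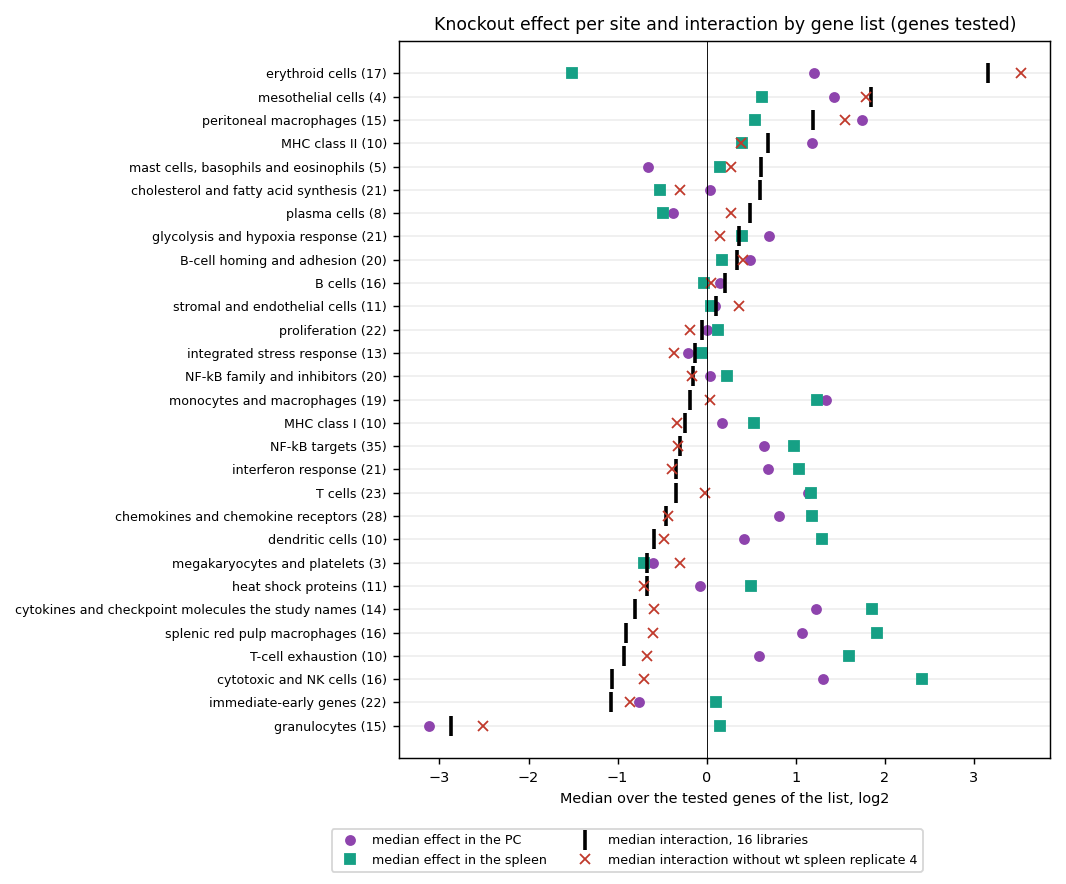
Median over the tested genes of each of 29 lists (number tested in parentheses) of the knockout effect in the PC, the knockout effect in the spleen and the interaction, in log2, with the interaction also without wt-labelled spleen 4. Granulocyte genes have the lowest and erythroid genes the highest median interaction, and the cholesterol list changes sign without that library.

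The study singled out 14 cytokine and checkpoint genes on these spleens, so their spleen effect is not independent evidence of its direction. 11 of the 14 rose in the spleen and 5 rose in the PC, beside 3.46% and 7.71% of all genes, with median effects of log2 1.86 and 1.22. The difference between the sites passed for 1 of them, Lag3, with all libraries, and for 2 without wt-labelled spleen 4. Lag3, an inhibitory T-cell receptor, measured 11.9, 13.4, 10.9 and 16.4 CPM (NFKBIE-wt) and 17.3, 14.6, 14.5 and 15.7 CPM (NFKBIE-ko) in the PC, and 2.99, 2.42, 1.75 and 1.51 CPM (NFKBIE-wt) and 5.8, 4.44, 9.89 and 5.42 CPM (NFKBIE-ko) in the spleen. Its level with the knockout was thus higher in the spleen and overlapped in the PC, and the interaction was log2 -1.32 (SE 0.35, adjusted p = 0.0363). Ccl22, a chemokine for regulatory and helper T cells, measured 8.69, 1.94, 6.39 and 105 CPM in the NFKBIE-wt spleens and 222, 6.41, 168 and 204 CPM in the NFKBIE-ko spleens, so that replicate 4 of the first and replicate 2 of the second each lay nearer to the other group. The interaction of Ccl22 was log2 -1.55 (SE 1.36, adjusted p = 0.541) with all libraries and log2 -4.02 (adjusted p = 0.0327) without wt-labelled spleen 4. Ccl4, a chemokine for T cells and macrophages, measured 2.55, 3.72, 1.8 and 5.51 CPM and 5.36, 3.03, 8.38 and 2.74 CPM in the NFKBIE-wt and NFKBIE-ko PC, and 0.877, 0.929, 0.457 and 0.151 CPM and 3.36, 2.83, 5.87 and 2.94 CPM in the spleens. It had an interaction of log2 -2.11 (SE 0.70, adjusted p = 0.085), which did not pass. Nor did Ccl3, with log2 -1.97 (SE 0.67, adjusted p = 0.0916). Cd274, which encodes the ligand PD-L1, measured 25.7, 28.3, 26.2 and 30.5 CPM and 112, 112, 71.2 and 60.3 CPM in the NFKBIE-wt and NFKBIE-ko PC, and 10.6, 10.8, 9.82 and 11 CPM and 25.5, 40.2, 19 and 18.2 CPM in the spleens. Its effects were log2 1.68 in the PC and 1.28 in the spleen, with an interaction of log2 0.40 (SE 0.33, adjusted p = 0.518). Its partner Pdcd1 (PD-1) had effects of log2 1.47 and 0.72 and an interaction of log2 0.75 (SE 0.48, adjusted p = 0.386). Pdcd1 had an interaction of log2 0.49 (adjusted p = 0.571) without that library. The remaining genes, Ccl5, Cxcl9, Cxcl10, Csf1, Tnf, Ifng, Tigit and Cd276, had interactions between log2 -1.73 and 1.73. A missed threshold does not show that the sites were alike for these genes.

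T-cell and cytotoxic markers had positive median effects at both sites. The 23 tested T-cell markers had median effects of log2 1.14 in the PC and 1.17 in the spleen, and the 16 cytotoxic and NK markers log2 1.31 and 2.42. None of the cytotoxic markers passed for the interaction by edgeR (0 higher and 5 lower at an unadjusted p under 0.05, 0 and 1 called by DESeq2, 0 and 0 by limma voom), at a median of log2 -1.07 (-0.71 without wt-labelled spleen 4). The summed cytotoxic list was 16.3, 15.6, 15.6 and 5.02 CPM in the NFKBIE-wt and 59.9, 50.4, 129.7 and 61 CPM in the NFKBIE-ko spleens. Il7r, the interleukin-7 receptor, was the T-cell marker to pass, and it measured 1007, 1254, 1304 and 959.8 CPM (NFKBIE-wt) and 461, 424, 489 and 537 CPM (NFKBIE-ko) in the PC, and 822, 707, 858 and 357 CPM (NFKBIE-wt) and 558, 666, 538 and 701 CPM (NFKBIE-ko) in the spleen. Its interaction of log2 -1.09 (SE 0.30, adjusted p = 0.0425) was log2 -0.92 (adjusted p = 0.00695) without wt-labelled spleen 4, which is not beyond log2 1. Cd3g, a subunit of the T-cell receptor complex, was at 1.88 to 18.2 CPM in these 16 libraries. Il7r was at 137 to 195 CPM in the 5 cultures other than wt-labelled culture 3. Entpd1 (CD39), on the exhaustion list, passed as higher with log2 1.06 (SE 0.18, adjusted p = 0.00481), and log2 0.92 (adjusted p = 0.00529) without wt-labelled spleen 4. That list as a whole went the other way. Of its 10 tested members 7 were negative and 1, Lag3, passed as lower, with a median of log2 -0.92 (-0.67 without wt-labelled spleen 4). Batf3, a transcription factor of dendritic cells, passed as higher with log2 2.52 (SE 0.54, adjusted p = 0.0143), from a rise at both sites, of log2 3.81 in the PC and 1.29 in the spleen. Batf3 and Ccr9 were the 2 of 10 tested dendritic cell markers to pass. Most of that list went the other way, with 6 negative members and a median of log2 -0.59 (-0.48 without wt-labelled spleen 4). Ear2, a ribonuclease of eosinophils, passed as lower with log2 -3.94 (SE 1.11, adjusted p = 0.0475), the 1 of 5 tested mast cell, basophil and eosinophil markers to do so. The list's median was positive, at log2 0.61 (0.28 without wt-labelled spleen 4). At edgeR's unadjusted p under 0.05 it held 3 higher members and 1 lower. Of the megakaryocyte and platelet markers 3 were tested, at a median of log2 -0.67 (-0.30 without wt-labelled spleen 4), and none passed by edgeR (1 higher and 0 lower at an unadjusted p under 0.05, 0 and 0 called by DESeq2, 0 and 0 by limma voom).

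Per transcript, 95 of 39615 tested transcripts passed (0.24%), 78 higher (0.197%) and 17 lower (0.0429%), and the spread between replicates was wider than per gene, with a biological coefficient of variation of 0.649 against 0.236. When wt-labelled spleen 4 was left out, 126 were higher and 41 lower. Of the 95 transcripts, 75 belonged to a gene that also passed. Slc25a34-201, Cd93-201, Nr5a2-201 and Rhox5-202 followed their genes, since they held between 80.8% and 100.0% of their genes' counts. The remaining 20 belonged to genes that did not pass. Dapk1-202, a transcript of a death-associated kinase that held 50.9% of its gene's counts, measured 1.85, 0.92, 1.65 and 1.48 CPM in the NFKBIE-wt PC and 8.5, 7.26, 4.6 and 8.08 CPM in the NFKBIE-ko PC. It was at 0 in all NFKBIE-ko spleens and at 0.611, 0.365, 0.257 and 0 CPM in the NFKBIE-wt spleens. Slc7a2-202, of an arginine transporter, measured 5.4, 8.43, 3.32 and 3.81 CPM in the NFKBIE-ko PC and was at or near 0 elsewhere. Dram1-201, of a lysosomal membrane protein, measured 5.75, 3.34, 5.13 and 6.66 CPM and 18.4, 38.5, 25.4 and 24.5 CPM in the NFKBIE-wt and NFKBIE-ko PC, and 0 and 4.04, 0.68, 2.14 and 1.83 CPM in the NFKBIE-wt and NFKBIE-ko spleens. Dram1-201 was thus higher with the knockout at both sites, and its call as lower rests on NFKBIE-wt spleens at 0. Groups at 0 give no fold for these 3 transcripts, and their adjusted p by edgeR were 0.0381, 0.0374 and 0.0323. Nop56-204, a minor transcript of a nucleolar protein with 8.06% of its gene's counts, was at 16, 33.2, 14.1 and 14.5 CPM and 11.8, 8.14, 10.2 and 6.43 CPM in the PC and at 26.5, 20.0, 34.4 and 13.2 CPM and 59, 45.8, 54 and 55.7 CPM in the spleens of NFKBIE-wt and NFKBIE-ko tumors. Its interaction was log2 -2.27 (SE 0.45, adjusted p = 0.0495). The transcript counts depended on single libraries, from 18 to 126 higher and from 3 to 55 lower when 1 library was left out.

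Whether the genes were detected in cultured tumor cells was read from the 6 cultures. At least 1 CPM in all 6 was found for 165 of the 258 higher and 52 of the 96 lower genes, beside 77.1% of all genes tested. Without wt-labelled culture 3, these were 172 and 53 genes, beside 78.5% of all genes. Under 1 CPM in all 6 cultures were 23 of the higher and 22 of the lower genes, beside 10.8% of all genes. In the 5 cultures without that library they were 36 and 28, beside 14.5%. In those 5 cultures Retnlg was at no more than 0.259, Cxcr2 0.038 and Vwf 1.44 CPM, whereas Hdac9 reached 76, Pitpnc1 56.4 and Cd93 216 CPM.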

How the data were processed

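Total RNA was sequenced as paired-end reads, and the authors deposited estimated counts per transcript for 22 libraries, made with Salmon 1.8 on GRCm39. These expected counts were not scaled for depth or length, 69.5% of values were not whole, and each listed transcript was above 0 in at least 5 libraries. Counts of 62147 of the 62492 transcripts, matched to GENCODE M39, were summed to 17023 genes, leaving out 0.619% of counts, and rounded to whole numbers. The 16 PC and spleen libraries (24036763 to 26573453 counts) were fitted with 4 group means, filterByExpr and TMM in edgeR 4.0.16 (R 4.3.3, quasi-likelihood, robust). The interaction contrast and the effect at each site were tested with Benjamini-Hochberg adjustment over all features, and a feature was called at an adjusted p under 0.05 and beyond log2 1. Genes named are Nfkbie, the 12 called genes per direction with the largest interaction and at least 5 CPM in their highest group, 6 per direction by the same rule in the fit without wt-labelled spleen 4 (the library whose label reads NFKBIE-wt spleen replicate 4), 4 transcripts per direction, the 14 genes the study singles out, and called members of gene lists with up to 4 further members each. Members, lists and rules were chosen with earlier results of these data known.

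Alternatives were RLE factors, other filters, DESeq2 1.42.0, limma 3.58.1 with voom quality weights, a fit of all 22 libraries, a replicate block and leaving out each library. That fit was planned, while its use for list medians and spleen effects, and the 5 cultures, were chosen after seeing the data. In counts simulated at a dispersion of 0.06 per gene, edgeR recovered 199 of 200 genes changed by log2 2, beside 10 false calls among 12889 tested. Per transcript, at a simulated dispersion of 0.1, it recovered 150 of 200, beside 9 false calls. The transcripts here had a common dispersion of 0.421, so that recovery does not describe them. Changes were placed only in features above a count minimum, and no library that went against its label was simulated. The correlation of same-numbered PC and spleen deviations within a genotype ran from -0.159 to 0.222, so numbers were not taken to pair samples. No 2 libraries of a group agreed within sampling noise. Promoter windows are from RefSeq on GRCm38.p6, and gene coordinates from GRCm39. Sex-linked genes were not analysed here.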

Additional observations from a re-analysis of the deposited data

Results flagged for a closer look

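A knockout effect that differed between the sites, by edgeR's quasi-likelihood test of the interaction, was found per gene for 258 genes higher and 96 lower in the PC, and per transcript for 78 higher and 17 lower. Among the named genes with a higher effect in the PC, the interaction was log2 5.48 for Slc25a34, 5.09 for Cd93, 4.86 for Dapk2, 4.62 for Thbd, 4.51 for Matk, 4.30 for Septin8, 4.13 for Gprc5b, 4.13 for Extl1, 4.11 for Hdac9, 4.03 for Adgrl2, 4.01 for Pitpnc1 and 4.00 for Pip5k1b. Among those with a lower effect it was log2 -2.07 for Adgrd1, -2.11 for Pou2af3, -2.21 for Etnk2, -2.25 for Usp18, -2.39 for Rhox5, -2.44 for Nr5a2, -2.90 for Gadd45b, -2.92 for Vcam1, -3.34 for Hfm1, -3.44 for Ppp1r15a, -4.16 for Cxcr2 and -4.98 for Retnlg.

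Single libraries lay far from the other 3 of their group by Dixon's criterion in 17 of the 136 groups of values tested, where chance gives about 1 in 20. Of these 17, 7 were wt-labelled spleen 4, which was high for Adgrl2 (23.2 CPM), Cd93 (191 CPM), Dapk2 (10.6 CPM), Extl1 (2.49 CPM), Nfkbie (121 CPM), Pitpnc1 (35.7 CPM) and Pou2af3 (7.47 CPM). A further 5 were NFKBIE-ko spleen replicate 2, which was low for Nfkbie (54.1 CPM), Etnk2 (0.904 CPM) and the summed glycolysis and hypoxia list (6838 CPM), and high for Adgrl2 (1.26 CPM) and Pitpnc1 (4.60 CPM). The other 5 were NFKBIE-wt PC replicate 1 for Extl1 (0.607 CPM, high), NFKBIE-ko PC replicate 1 for Gprc5b (20.9 CPM, low), NFKBIE-ko PC replicate 3 for Pou2af3 (38.6 CPM, low), NFKBIE-wt spleen replicate 1 for Usp18 (1.55 CPM, high) and NFKBIE-ko PC replicate 2 for the summed MHC class II list (5142 CPM, high).

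Outside the comparison, wt-labelled culture 3 held 260.1 CPM of summed granulocyte markers and 1696 CPM of summed erythroid markers, against at most 5.39 and 28.2 CPM in the other 5 cultures. Limma's voom gave its lowest sample weights to wt-labelled spleen 4 (0.154) and to NFKBIE-ko spleen replicate 2 (0.266).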

How the results depend on the processing

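The counts of called genes were 258 higher and 96 lower. They were within 1.5 times of this with RLE factors (272 and 87) and with no filter on low counts (218 and 103). They became 444 and 360 with no fold threshold, 467 and 158 with DESeq2, and 469 and 195 with limma's voom and sample weights. The lower count was 52 with a stricter filter, which tests fewer genes, and 59 in a fit of all 22 libraries. A replicate block within each genotype over both sites gave 133 and 51, and a block by number alone 189 and 67. Leaving out 1 library gave 161 to 416 higher and 49 to 172 lower genes. The spleen effect, with 454 genes higher and 379 lower, gave 171 and 194 when fitted on its 8 libraries alone. Transcript counts, 78 and 17, ranged from 18 to 126 and from 3 to 55 when 1 library was left out. They were 36 and 9 with no filter, 536 and 313 with DESeq2, 2 and 3 with the replicate block within genotype, and 13 and 3 with the block by number alone. Lower transcripts numbered 26 with no fold threshold, 52 with a stricter filter and 11 in the fit of all 22 libraries. The cause of these shifts was not tested. For Nfkbie and the 24 largest interactions, no value changed sign. Of 400 values with 1 library left out, 322 stayed on the same side of the threshold, 76 lost and 2 gained the call, and under other settings 173 stayed, 24 lost and 1 gained it. DESeq2 gave no adjusted p for Adgrl2 and Extl1, which were left out there. Genes at a few counts, and transcripts, have the widest errors at this depth.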

Other observations

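The genes below are called genes, chosen after their values were seen, given as mean ± SD of 4 libraries. Bach2, Cmah and Abca1 fell with the knockout in the spleen, and their effects in the PC did not pass. Bach2, a repressor that restrains plasma cell differentiation, was at 6.47 ± 4.6 CPM in the NFKBIE-ko against 24.7 ± 3.0 CPM in the NFKBIE-wt spleens, and at 11.9 ± 2.17 against 9.82 ± 2.75 CPM in the PC. Its interaction was log2 2.21 (SE 0.48, adjusted p = 0.0163). Cmah, which makes the sialic acid bound by mouse Cd22, was at 34 ± 11.8 against 122 ± 23.3 CPM in the spleen and 59.9 ± 8.29 against 77.2 ± 12.8 CPM in the PC, with an interaction of log2 1.48 (SE 0.29, adjusted p = 0.00871). St6gal1, the sialyltransferase that makes Cd22 ligands, was at 81 ± 14.2 against 156 ± 15.1 CPM in the spleen. Its interaction was log2 1.03 (SE 0.17, adjusted p = 0.00336), and log2 0.94 (adjusted p = 0.00465) without wt-labelled spleen 4, below log2 1. Abca1, a cholesterol exporter, was at 3.37 ± 1.05 against 33.6 ± 22.6 CPM in the spleen and 93.8 ± 11.2 against 63.3 ± 18 CPM in the PC, with an interaction of log2 3.88 (SE 0.78, adjusted p = 0.0107).

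Pdcd1lg2 and Ctsd rose in the PC, and their effects in the spleen were not beyond log2 1. Pdcd1lg2, which encodes the PD-1 ligand PD-L2, had the smallest adjusted p of all genes, with 24.4 ± 4.03 CPM in the NFKBIE-ko and 3.4 ± 0.169 CPM in the NFKBIE-wt PC, and 4.39 ± 0.32 against 2.59 ± 0.246 CPM in the spleen. Its interaction was log2 2.08 (SE 0.19, adjusted p = 1.67e-04). Ctsd, a lysosomal protease abundant in macrophages, was at 1649 ± 188 against 478 ± 146 CPM in the PC and 161 ± 44.9 against 149 ± 22.2 CPM in the spleen, with an interaction of log2 1.67 (SE 0.31, adjusted p = 0.00691), and macrophage markers were higher in the same PC libraries (their part was not tested). Hspa5, the chaperone of the endoplasmic reticulum, was at 498 ± 43.1 against 927 ± 381 CPM in the PC and 1251 ± 255 against 986 ± 184 CPM in the spleen, with an interaction of log2 -1.24 (SE 0.33, adjusted p = 0.040).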
